A study of Mus musculus with 12 samples.

Results

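The AIM2-like Ifi200 family was examined through 5 genes, Aim2, Ifi203, Ifi204, Ifi205 and Mndal, found by their symbols among 45777 genes of a count table of mouse tumour RNA. All 5 passed the filter on low counts that left 17885 genes for testing. Proteins of this family (also called PYHIN or HIN-200 proteins) bind nucleic acid through a C-terminal HIN domain, and most carry an N-terminal pyrin domain that binds other pyrin proteins. AIM2 binds double-stranded DNA in the cytosol and, through the adaptor ASC (gene Pycard), activates caspase-1, which matures IL-1β and IL-18 and cleaves gasdermin D. IFI204 is a nuclear and cytosolic protein linked to DNA sensing through STING, and it is often set beside human IFI16. IFI203, IFI205 and MNDAL are less studied members, and most genes of the family are known to be induced by interferons, in macrophages above all.

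The 12 libraries came from subcutaneous tumours of 393P, a mouse lung cancer cell line, in 8-week-old male 129S2/SvPasCrl mice. The 4 groups of 3 libraries crossed the MAVS genotype of the line (MAVS knockout or MAVS reconstituted) with treatment (BAY-1217389, an inhibitor of MPS1, or control). MAVS is the mitochondrial adaptor through which the RNA sensors RIG-I and MDA5 switch on interferon genes, and MPS1 is a kinase of the spindle assembly checkpoint whose inhibition makes chromosomes missegregate. The inhibitor was given at 5 mg/kg 2 times daily for 2 days, with harvest on the day after. Reconstituted denotes cells to which MAVS was given back, and the titles of the knockout libraries carry the word Luc, which the labels do not explain. The labels do not say whether the line was 1 clone, which part of Mavs was deleted, or whether separate animals gave the libraries of a group. The p-values below therefore measure the spread between these libraries, which may be technical. The host animals are not described as altered, so a tumour piece held knockout or reconstituted cancer cells together with the host's own cells. The series asks which expression changes after pulsed MPS1 inhibition depend on MAVS.

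Library totals ran from 52983715 to 69108411 counts. Libraries of the same group differed by more than counting noise in every pair (lowest chi-square per gene 32.5). The library reconstituted inhibitor 1 stood apart on the first principal component (28.5% of the variance). The calls of members in the MAVS comparisons under the inhibitor and averaged are therefore also given without it below. Mavs itself ran from 39.4 to 45.7 CPM (counts over a library size adjusted with TMM factors) in the 6 knockout libraries and from 50.1 to 85.1 CPM in the 6 reconstituted libraries. The groups did not overlap (log2 difference 0.58 ± 0.09 SE averaged over treatments, adjusted p = 0.0105). Mavs counts were thus present in every library labelled knockout, and a count over the whole gene does not show which part of the transcript or which cells it came from.

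The family lies in 1 block of chromosome 1. In RefSeq's annotation of GRCm38.p6, the build named in the submitters' processing notes, the cluster of 13 family genes and the pseudogene Ifi203-ps spans 682209 bp. Aim2 opens it at chr1:173349547-173466040 on the plus strand. The other members follow on the minus strand: Ifi204 at chr1:173747293-173767069, Mndal at chr1:173857215-173880382, Ifi203 at chr1:173920400-173942866 and Ifi205 at chr1:174011998-174031755. All 5 are protein-coding genes. Promoter letters are shown first, as a description, and a link between them and the levels was not tested. The RefSeq promoter windows (250 bases before to 50 after a transcription start) were searched on both strands for the interferon-stimulated response element, ISRE, read as GAAA, any 2 bases and GAAA, and the gamma-activated site, GAS, spelled TTCNNNGAA. The following 30-base stretches, 5′ to 3′ on the gene's strand, carry the ISRE match in capitals, with 10 bases on each side. The Aim2 stretch lies 63 to 34 bases before the start, in a window that holds no match. That window, chr1:173420354-173420653, is the only one for Aim2. It lies inside the gene span given above, so the 5′ end of that span was not searched.
Mndal: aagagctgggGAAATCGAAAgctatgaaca
Ifi203: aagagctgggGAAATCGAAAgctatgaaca
Ifi205: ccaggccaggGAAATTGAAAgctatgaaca
Ifi211: caaagccaggGAAATTGAAAgctatgaacg
Ifi214: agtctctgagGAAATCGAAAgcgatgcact
Aim2: cttgtaactctgtttctttgtctgagcaag

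These lie at chr1:173880204-173880233 (Mndal, minus strand), chr1:173942508-173942537 (Ifi203, minus), chr1:174031870-174031899 (Ifi205, minus), chr1:173913064-173913093 (Ifi211, minus), chr1:173536017-173536046 (Ifi214, minus) and chr1:173420541-173420570 (Aim2, plus). The capitals begin 36 bases before the start in Mndal, 35 in Ifi203 and 134 in Ifi205. Each start is that of a RefSeq window, and the Mndal and Ifi203 stretches lie inside the gene spans given above. Ifi211 and Ifi214, neighbours of the same family, have theirs 37 and 79 bases before the start. Mndal and Ifi203 shared all 74 of 74 bases around the match, whereas Ifi205 was identical to Ifi203 at 41 of 74 and to Ifi211 at 65 of 74. A second window of Mndal, for another start, held a further ISRE match 54 bases before that start. Ifi205 held one 24 bases into the transcript. A second window of Ifi203, for another start, held no match to either motif. Of the 12 cluster genes with a window, 9 held an ISRE match, among them 3 of the 4 members with a window. Ifi204 had no entry in the table. The ISRE letters occur in 3.44% of the 32851 mouse promoter windows, and the exact capitals of Mndal, Ifi203 and Ifi214 in 16 of them, 7 of which belong to this cluster. Aim2, Ifi209 and Ifi202b had no ISRE match in their windows. Of these, Ifi209 and Ifi202b passed the comparison of genotypes averaged over treatments given below, and Aim2 did not. The GAS letters, found in 8.30% of all windows, occurred in the cluster only in Ifi202b, 148 bases before the start. A match is a description of letters in a C57BL/6J reference, not a site shown to be used, and these mice are of a 129 strain.

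**Figure D1:**
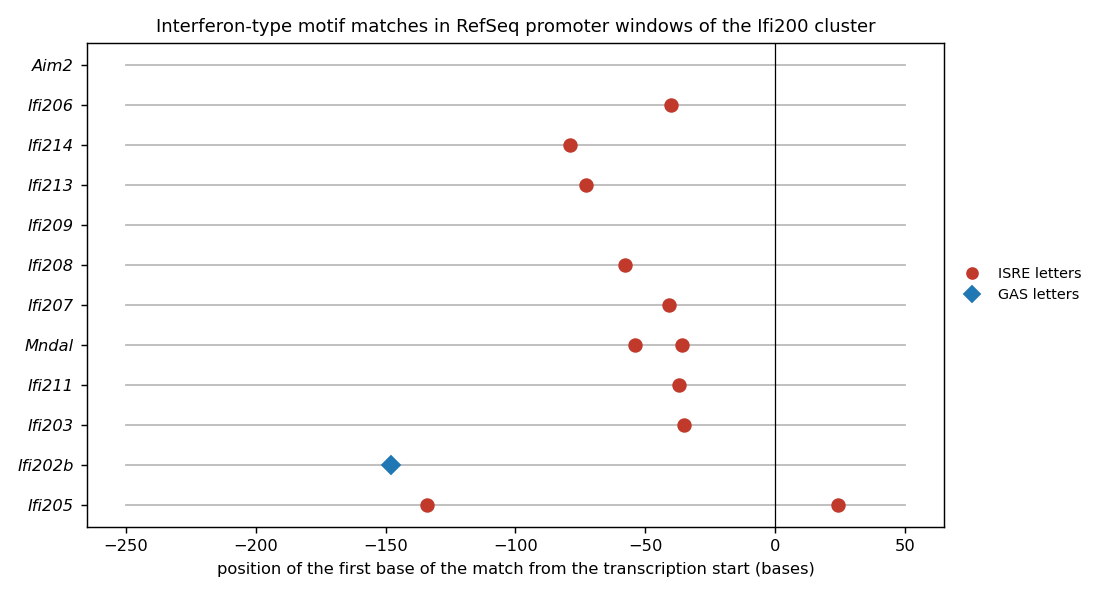
Positions of ISRE (circles) and GAS (diamond) letter matches in the RefSeq promoter windows of 12 cluster genes, in bases from the transcription start (vertical line); grey lines span the window. The matches closest to the start in Mndal and Ifi203 sit 36 and 35 bases before it, while Aim2 and Ifi209 have none.

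Mndal, Ifi205, Ifi203 and Ifi204 were higher in MAVS-reconstituted than in MAVS-knockout tumours once both treatments were averaged, by 2.39-fold, 2.18-fold, 2.07-fold and 1.89-fold. Aim2, the inflammasome sensor that gives the family its name, was 1.26-fold higher and did not pass the test. The MPS1 inhibitor left all 5 without a called change in either genotype. The levels in the plot by library show the 6 knockout libraries together at the bottom of the panels of Mndal, Ifi203, Ifi204 and Ifi205, with the reconstituted libraries spread above them. In the Aim2 panel the genotypes overlap.

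**Figure D2:**
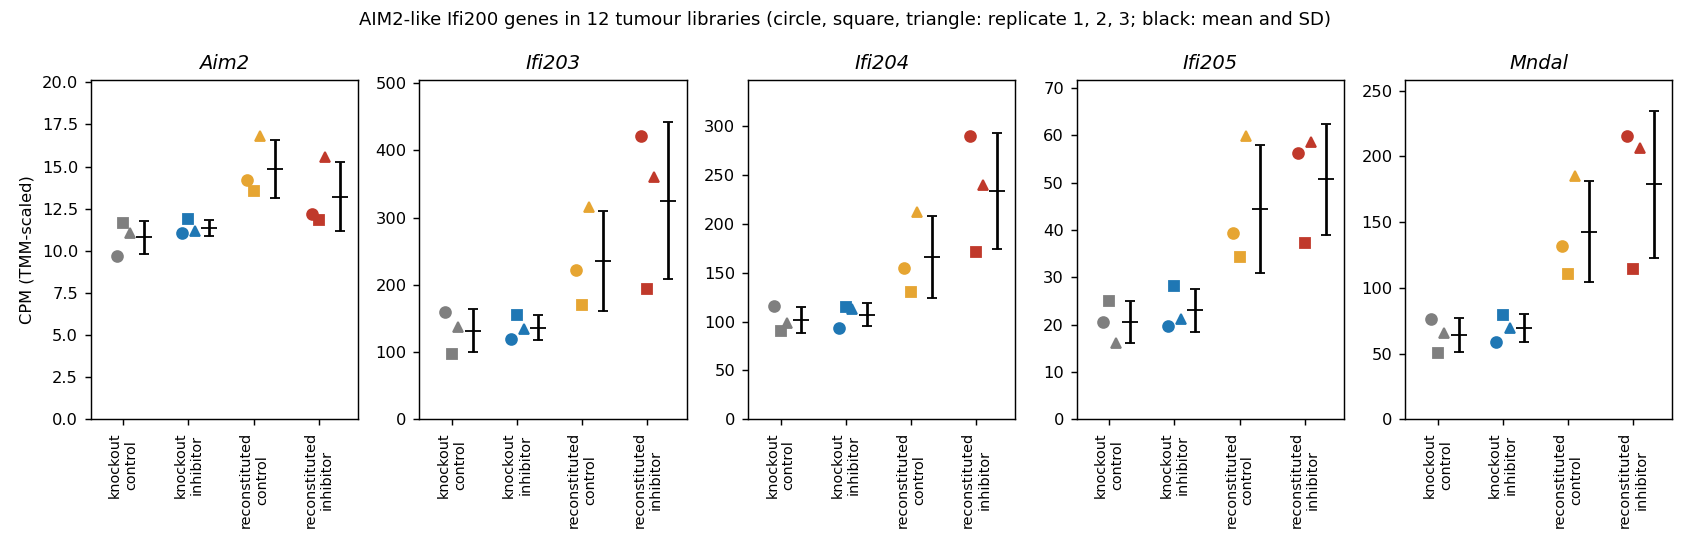
CPM of each member in the 12 libraries by group (symbols: replicates 1, 2 and 3), with mean and SD of 3 libraries in black; each panel has its own axis from 0. Mndal ran from 50.6 to 79.6 CPM in the knockout libraries and from 111 to 215 CPM in the reconstituted ones, and Aim2 stayed between 9.71 and 16.8 CPM throughout.

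Mndal encodes a protein resembling human MNDA, a nuclear antigen of myeloid cells. Its level was 76.6, 50.6 and 65.6 CPM in knockout control tumours 1, 2 and 3, and 58.6, 79.6 and 69.7 CPM in knockout tumours under the inhibitor. In reconstituted control tumours it was 132, 111 and 185 CPM, and under the inhibitor 215, 115 and 207 CPM. The 6 reconstituted libraries were all above the 6 knockout libraries, and reconstituted inhibitor 2 sat close to the reconstituted controls. The log2 difference was 1.15 ± 0.26 (SE) without the inhibitor (adjusted p = 0.122), 1.37 ± 0.26 under it (adjusted p = 0.0448) and 1.26 ± 0.18 averaged (adjusted p = 0.00689; edgeR's quasi-likelihood F-test with Benjamini-Hochberg adjustment over 17885 genes, as for all adjusted p-values here).

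Ifi204 encodes p204, the member linked to STING. It stood at 116, 90.0 and 98.9 CPM in knockout controls and at 93.2, 115 and 113 CPM in knockout tumours under the inhibitor. Reconstituted controls had 155, 130.2 and 212 CPM, and reconstituted tumours under the inhibitor 289, 171 and 240.1 CPM. The lowest reconstituted library, control 2, was still above the highest knockout library, control 1. The log2 difference was 0.71 ± 0.21 without the inhibitor (edgeR adjusted p = 0.169), 1.13 ± 0.21 under it (adjusted p = 0.0399) and 0.92 ± 0.15 averaged (adjusted p = 0.0122).

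Ifi205 is the HIN-200 gene at the far end of the cluster. It was at 20.5, 24.9 and 16.1 CPM in knockout controls and 19.7, 28.2 and 21.3 CPM in knockout tumours under the inhibitor. Reconstituted libraries had 39.3, 34.2 and 59.8 CPM without and 56.2, 37.3 and 58.7 CPM with the inhibitor. The 2 genotypes did not overlap, and the difference was nearly the same under both treatments. It was 1.12 ± 0.25 on the log2 scale without the inhibitor (edgeR adjusted p = 0.121), 1.14 ± 0.25 under it (adjusted p = 0.0689) and 1.13 ± 0.18 averaged (adjusted p = 0.0105).

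Ifi203 had the largest relative spread of the 5 in 3 of the 4 groups, with a coefficient of variation of 24.4% to 36.1%. Its values were 159.5, 96.5 and 138 CPM in knockout controls, and 119, 156 and 134 CPM in knockout tumours under the inhibitor. In reconstituted tumours they were 222, 169 and 316 CPM in controls and 421, 194 and 360.5 CPM under the inhibitor. The gap between the genotypes was narrow, from 159.5 CPM in knockout control 1 to 169 CPM in reconstituted control 2. The log2 difference was 0.84 ± 0.30 without the inhibitor (edgeR adjusted p = 0.197), 1.25 ± 0.30 under it (adjusted p = 0.0765) and 1.05 ± 0.21 averaged (adjusted p = 0.0330). That averaged call was lost in 10 of the 12 fits that left out 1 library, with adjusted p up to 0.0977, while the difference stayed between 0.91 and 1.18 in all alternatives.

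Aim2 differed least. It had 9.71, 11.6 and 11.1 CPM in knockout controls and 11.0, 11.9 and 11.2 CPM in knockout tumours under the inhibitor. Reconstituted controls had 14.2, 13.5 and 16.8 CPM, all above the knockout controls. Reconstituted tumours under the inhibitor had 12.2, 11.8 and 15.6 CPM, with replicate 2 just below the highest knockout library treated alike. The log2 difference was 0.46 ± 0.13 without the inhibitor (edgeR adjusted p = 0.169), 0.22 ± 0.13 under it (adjusted p = 0.362) and 0.34 ± 0.09 averaged (adjusted p = 0.112). The 95% interval of the averaged fold change ran from 1.10 to 1.46. DESeq2, run as an alternative, called Aim2 in the averaged comparison (adjusted p = 0.0282) and without the inhibitor (adjusted p = 0.0436). Aim2 overlaps Cadm3, a gene of the opposite strand, in both RefSeq and GENCODE. The sources used here do not say whether the counting used strand, so reads in the overlap cannot be told apart. Cadm3 had an averaged log2 difference of -1.45 (edgeR adjusted p = 0.159).

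Counted by the threshold, 0 of 5 members passed without the inhibitor, where 0.117% of all tested genes were called higher. All 5 had an unadjusted p under 0.05 there, as did 3352 of the 17885 genes. DESeq2 called 4 of the 5, with 307 genes higher and 412 lower of 14715, and limma-voom called 0 of the 5, with 11 higher and 4 lower. Under the inhibitor 2 of 5 passed, Ifi204 and Mndal, against 0.520% of all genes. Both calls were lost when only the 6 libraries compared were fitted (edgeR adjusted p = 0.0867 and 0.0935). The count was also 0 without any of reconstituted inhibitor 1, reconstituted control 1, the 3 knockout controls or the 3 knockout inhibitor libraries, and 4 without reconstituted inhibitor 2 or without reconstituted inhibitor 3. Averaged over treatments 4 of 5 passed against 1.09%, and Ifi204, Ifi205 and Mndal passed in all 18 alternatives, including the fit without reconstituted inhibitor 1. The median log2 difference of the 5 was 0.84, 1.14 and 1.05 in these 3 comparisons, while the median over all genes was 0.00 or 0.01. Reconstituted libraries were all above the knockout libraries of the same treatment for 5 of 5 members in controls (15.6% of all genes) and for 4 of 5 under the inhibitor (10.9%). Over all 12 libraries this held for 4 of 5 members and for 1.33% of all genes.

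The ratio of each other member to Aim2 within a library is given as a description, since Aim2 was taken as the denominator after its smaller difference had been seen. On the log2 scale the mean ratio in reconstituted tumours exceeded that in knockout tumours by 0.90 for Mndal, 0.78 for Ifi205, 0.68 for Ifi203 and 0.56 for Ifi204. Without the inhibitor these values were 0.68, 0.64, 0.37 and 0.23, and under it 1.12, 0.92, 0.98 and 0.89.

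The other question of the design is whether MPS1 inhibition moved the members. In knockout tumours the log2 differences of inhibitor against control were between 0.05 (Ifi203) and 0.17 (Ifi205), all with edgeR adjusted p = 1. In reconstituted tumours they were 0.50 ± 0.21 for Ifi204, 0.46 ± 0.29 for Ifi203, 0.33 ± 0.26 for Mndal, 0.19 ± 0.25 for Ifi205 and -0.17 ± 0.13 for Aim2. The Ifi204 value had a 95% interval from 0.04 to 0.95 and an edgeR adjusted p of 0.128, and the others had adjusted p from 0.289 to 0.617. In each member the treated and control libraries overlapped in both genotypes. No member was called in these comparisons, nor was any gene of the table (0% higher in either genotype). At an unadjusted p under 0.05, 305 genes passed in knockout and 5827 in reconstituted tumours, among them 0 and 1 of the members. DESeq2 and limma-voom called 0 members in both. Over all genes of reconstituted tumours DESeq2 called 2001 higher and 1489 lower of 14715, and limma-voom 0. In knockout tumours DESeq2 called 2 higher and 1 lower, and limma-voom 0 and 1. Without reconstituted inhibitor 3, edgeR called 2894 genes higher and 2789 lower in reconstituted tumours, with 0 members among them.

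The interaction, the inhibitor effect in reconstituted minus that in knockout tumours, was 0.42 for Ifi204, 0.41 for Ifi203, 0.22 for Mndal, 0.02 for Ifi205 and -0.24 for Aim2 on the log2 scale. The edgeR adjusted p ran from 0.376 to 0.977. Its 95% intervals were wide, from -0.22 to 1.07 for Ifi204, from -0.50 to 1.32 for Ifi203 and from -0.65 to 0.17 for Aim2. A difference in the MAVS effect between the treatments was therefore not detected, and the Ifi203 interval was the widest of the 5. Called higher were 0% of all genes for the interaction and 0% for the inhibitor averaged over genotypes, and 4421 and 1399 genes had an unadjusted p under 0.05. None of the 5 members did, and DESeq2 and limma-voom called 0 of them. For the interaction over all genes DESeq2 called 754 higher and 484 lower of 13653 and limma-voom 0. Without reconstituted inhibitor 3 edgeR called 1963 higher and 2042 lower, again with 0 members. For the inhibitor averaged over genotypes DESeq2 called 0 higher and 1 lower, and limma-voom 0. Averaged over genotypes the members' differences lay between -0.05 (Aim2) and 0.28 (Ifi204).

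**Figure D3:**
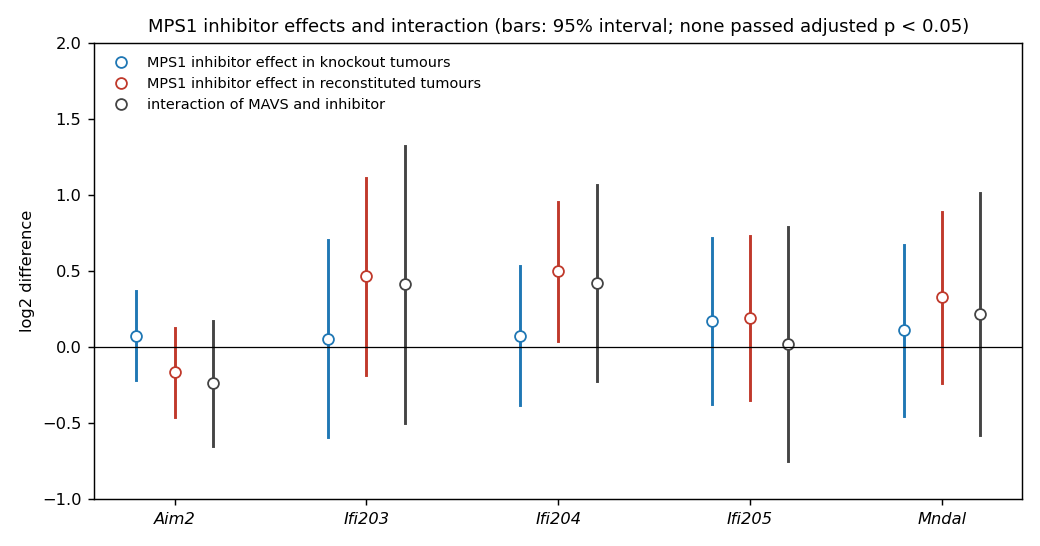
Log2 differences of inhibitor against control in knockout (blue) and reconstituted (red) tumours and their interaction (black) for each member, with 95% intervals from the edgeR fit; open circles mark values that did not pass an adjusted p of 0.05. The Ifi204 interval in reconstituted tumours, 0.04 to 0.95, alone leaves out 0.

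Levels were compared between genes per length, as CPM per kilobase of GENCODE exons. The length was the union of all annotated exons, 6706 bp for Ifi203 and 3561 bp for Ifi204, and the order depends on it. Before division by length Ifi203 was above Ifi204, with means of 131 and 101 CPM in knockout controls. In reconstituted tumours under the inhibitor these means were 325 and 233 CPM. In knockout control tumours the order was Ifi204 at 28.5 ± 3.64 (SD, n = 3), Ifi203 at 19.6 ± 4.78, Mndal at 17.7 ± 3.61, Ifi205 at 4.91 ± 1.06 and Aim2 at 3.09 ± 0.282 CPM per kb. The ranges of Ifi203 (14.4 to 23.8) and Mndal (13.9 to 21.1) overlapped. In reconstituted tumours under the inhibitor the values were 65.5 ± 16.8 for Ifi204, 49.3 ± 15.4 for Mndal, 48.5 ± 17.5 for Ifi203, 12.1 ± 2.80 for Ifi205 and 3.77 ± 0.588 for Aim2 CPM per kb. There the ranges of the 3 most abundant members overlapped, at 47.9 to 81.3 for Ifi204, 31.6 to 59.3 for Mndal and 29.0 to 62.7 for Ifi203. The genes were measured in the same libraries and vary together, so SDs and ranges do not measure the difference between genes. Ifi205 was well below these 3, and Aim2 was the lowest member in every group.

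Within a group the members tended to be high or low in the same libraries, least clearly in the knockout controls. In knockout tumours under the inhibitor, replicate 1 was above its group's mean in 0 of 5 members, replicate 2 in 5 and replicate 3 in 2. Knockout controls were split: control 2 was above its group's mean in 2 of 5 members, with deviations from -0.41 to 0.30, and control 3 in 3 of 5. Reconstituted control 3 was above its group's mean in all 5 members, by 0.38 on average on the log2 scale, and reconstituted inhibitor 3 in all 5, by 0.21. Reconstituted control 2 and reconstituted inhibitor 2 were below it in all 5, by 0.31 and 0.45. Over the 12 libraries Pearson's r of log2 CPM was 0.98 for each pair of Ifi203, Ifi204 and Mndal, and between 0.96 and 0.99 after the group means were removed. Aim2 was less alike, with r of 0.65 to Ifi203 and 0.64 to Ifi204, and 0.35 to both after removal of the group means. Its highest was 0.82, to Ifi205. These points share libraries and scaling factors, so the coefficients are descriptions.

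Members of the cluster share stretches of sequence, and the sources used here do not say how reads that match several genes were counted. In GENCODE M21 transcripts no 50-base stretch of Aim2 recurred in another cluster gene. For Ifi204, Ifi205, Mndal and Ifi203 the share was 19.2%, 18.6%, 17.7% and 12.2%, and the largest single partner was Ifi211 for the first 3 (14.8%, 18.5% and 7.96%) and Ifi203-ps for Ifi203 (8.85%). Over 100 bases the shares were 10.7%, 15.0%, 5.89% and 2.84% in the same order. The split of reads between these members and Ifi211 is thus uncertain. At both lengths most stretches of each member were found in no other gene of the cluster. Genes outside the cluster were not searched, and the transcripts are those of the C57BL/6J reference.

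The other 8 genes of the cluster all had positive differences in the 3 MAVS comparisons, and 5 of 8 passed in the averaged one. Ifi214 had the smallest adjusted p among them: its counts were 9 to 24 in the 6 knockout libraries and 54 to 93 in the 6 reconstituted ones, a log2 difference of 2.23 ± 0.21 averaged (edgeR adjusted p = 0.000723). It passed without the inhibitor as well (2.55, adjusted p = 0.0137) and under it (1.91, adjusted p = 0.0225). Ifi207 rose by 1.19 ± 0.13 (adjusted p = 0.00185). Its knockout libraries had 25.0 to 33.7 CPM and its reconstituted libraries 51.5 to 96.8 CPM, and it also passed under the inhibitor (1.33, adjusted p = 0.0210). Ifi209 (also called Pyhin1) rose by 1.26 (edgeR adjusted p = 0.0166) and Ifi211 (also called Mnda) by 0.91 (adjusted p = 0.0192). Of the Ifi211 transcript, 72.8% of 50-base stretches recur in another cluster gene, mostly Ifi205. For Ifi214 this share was 14.5%, all with Ifi209, and for Ifi209 it was 33.4%, all with Ifi214. Ifi209 had 259 to 1227 counts in a library, far more than Ifi214. The split of reads between Ifi209 and Ifi214 is therefore uncertain too, and its part in the Ifi214 result was not tested.

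Ifi202b encodes a protein with HIN domains but no pyrin domain that can hold AIM2 back from its adaptor. It was the most abundant per length, at 89.7 CPM per kb in knockout controls and 160.1 CPM per kb in reconstituted tumours under the inhibitor. It rose by 0.63 ± 0.13 averaged (edgeR adjusted p = 0.0428), and no 50-base stretch of it recurred elsewhere in the cluster. Ifi206, Ifi208 and Ifi213 were near the detection limit. Ifi206 had 0 to 12 counts in knockout and 18 to 73 in reconstituted libraries, Ifi208 had 0 to 22 and 32 to 99, and Ifi213 had 0 to 8 and 7 to 21. None of the 3 passed the averaged comparison (edgeR adjusted p = 0.0699, 0.0615 and 0.120).

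**Figure D4:**
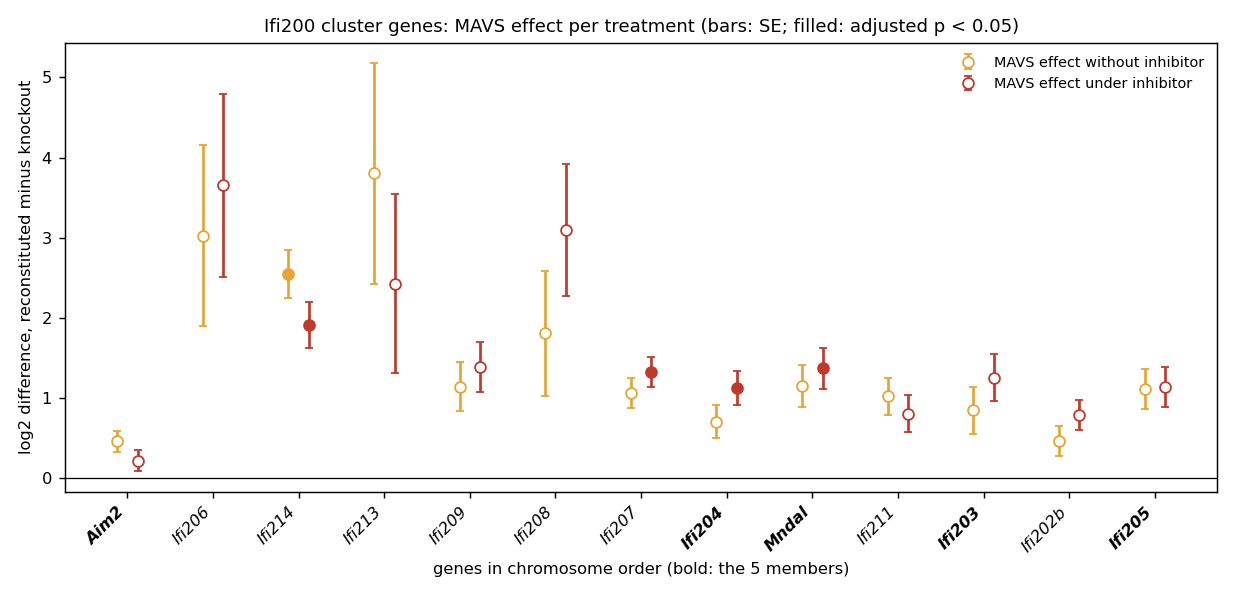
Log2 difference of reconstituted minus knockout tumours for 13 cluster genes in chromosome order, without (orange) and under (red) the inhibitor; bars are SE and filled circles passed an adjusted p of 0.05. All points are above 0, Aim2 has the lowest under the inhibitor (0.22), and the widest bars belong to Ifi206, Ifi208 and Ifi213, which had few counts.

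Genes flanking the block were mostly unlike it. Of the 5 nearest tested coding genes on each side, 1 of 10 passed the averaged comparison, Fcrl6, an Fc receptor-like gene of lymphocytes (edgeR adjusted p = 0.0288). Fcrl6 had 0 counts in 5 of 6 knockout libraries and 6 in the other, against 9 to 54 in the reconstituted ones. The other 9 lay between -1.45 (Cadm3) and 0.28 (Kmo), with adjusted p from 0.159 to 0.984.

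A list of inflammasome and pyroptosis genes gave no edgeR calls. It holds genes beyond the AIM2 pathway, such as Nlrp3 and Mefv, so its medians do not describe that pathway alone. Of 17 inflammasome and pyroptosis genes, 0 passed in any of the 3 MAVS comparisons by edgeR, with medians of 0.23 without the inhibitor, 0.71 under it and 0.34 averaged. At an unadjusted p under 0.05 there were 1, 11 and 9 of them, DESeq2 called 0, 11 and 7, and limma-voom 0 in each. Over all 17885 genes the unadjusted p was under 0.05 for 3352, 3523 and 2700. DESeq2 called 705 genes higher and 470 lower of 15780 under the inhibitor, and 578 higher and 385 lower of 16312 averaged. Averaged log2 differences were 0.58 for Casp1 (caspase-1), 0.40 for Gsdmd (gasdermin D), 0.34 for Pycard (ASC), 0.13 for Il18 and -0.15 for Il1b, with edgeR adjusted p from 0.141 to 0.776. Of 11 genes of cytosolic DNA sensing 1 passed in the averaged comparison, Irf7, the interferon regulatory factor that amplifies interferon production (2.28 ± 0.32, adjusted p = 0.00523). Irf7 also passed under the inhibitor (2.71, edgeR adjusted p = 0.0316). Cgas, the enzyme that makes cGAMP on DNA, had 0.52 averaged (adjusted p = 0.0766), and Tmem173 (STING) had 0.32 (adjusted p = 0.302). A reference list of 20 interferon-stimulated genes had 3, 16 and 18 called without the inhibitor, under it and averaged, with medians of 1.71, 2.62 and 2.06. Each member's averaged difference was thus below that list's median.

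The family is known from myeloid cells, and in bulk tissue fewer cells of a type and less RNA per cell cannot be told apart. Marker lists of other cells that may be present are therefore given beside them. The 10 macrophage markers had 0 calls (unadjusted p under 0.05 in 1 of 10 averaged; DESeq2 called 1, limma-voom 0). Their summed level was 2368 to 2744 CPM in knockout controls, 1964 to 2458 in knockout tumours under the inhibitor, 1973 to 2338 in reconstituted controls and 2409 to 3576 in reconstituted tumours under the inhibitor. In controls the macrophage sum of every reconstituted library was below that of every knockout library, and under the inhibitor the sums overlapped. Reconstituted minus knockout differences were positive for 1 of 10 markers in controls and for 9 of 10 under the inhibitor. At an unadjusted edgeR p under 0.05 these comparisons had 1 and 5 of 10 markers, and 3352 and 3523 of all 17885 genes. The part of macrophages in the members' result was not tested. NK and cytotoxic markers were also higher in reconstituted tumours: 3 of 7 passed averaged (Gzma 2.28, Gzmb 2.09 and Prf1 2.62), and the same 3 passed under the inhibitor. Their sum was 10.7 to 35.3 CPM and 15.8 to 29.9 CPM in the knockout groups, 54.8 to 87.2 CPM in reconstituted controls and 97.1 to 126 CPM in reconstituted tumours under the inhibitor. Within a group the order could differ. Under the inhibitor, reconstituted replicate 2 had the highest sum of this list (126 CPM) and the lowest sum of the members (529 CPM). Replicate 1 had the lowest sum of this list (97.1 CPM) and the highest of the members (994 CPM). In reconstituted controls replicate 3 was highest in both (87.2 and 790 CPM). No marker of this list was at 0 counts in all 3 libraries of a group, and the list's part in the members' result was not tested. Of the epithelial tumour cell markers 2 of 6 were called lower averaged (log2 difference -0.57 for Cldn4 and -0.35 for Epcam), as were 84 of all 17885 genes. By edgeR 0 of 8 T cell, 0 of 6 dendritic cell, 0 of 5 neutrophil, 0 of 7 fibroblast, 0 of 6 endothelial, 0 of 5 red blood cell, 0 of 6 skeletal muscle and 0 of 2 tested B cell markers passed averaged. At an unadjusted p under 0.05 these were 4, 0, 0, 4, 1, 5, 1 and 0, DESeq2 called 1 T cell and 3 red blood cell markers, and limma-voom called 0. All 5 red blood cell markers had negative averaged differences (median -1.55). Their sum was 49.4 to 237 CPM in knockout and 32.5 to 53.5 CPM in reconstituted controls, and 59.7 to 294 and 50.6 to 112 CPM under the inhibitor, and its part in the members' result was not tested. The leukocyte marker Ptprc (CD45) had 0.31 averaged (edgeR adjusted p = 0.282).

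Genes whose level followed the members most closely over the 12 libraries were chosen by Pearson's r of log2 CPM, as a description. For the mean of the 5 members these were Dtx3l (r = 0.98), Zc3hav1 (0.98), Znfx1 (0.97), Ddx58 (0.97) and Trim14 (0.97). Mndal was most like Dtx3l, Parp14 and Trim14 (r = 0.99 each), and Ifi203 most like Parp14, Tlr3 and Dtx3l (0.98 to 0.99). Ifi204 was most like Sp140, Parp9 and Herc6 (0.98 to 0.99). Ifi205 had lower maxima, with Zfp710 (0.95), Oas2 (0.94) and Trim34b (0.94). Aim2 again had the lowest, with Snap29 (0.93), Trim34a (0.92) and Prune2 (0.92), none of them in the lists of the other members.

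**Figure D5:**
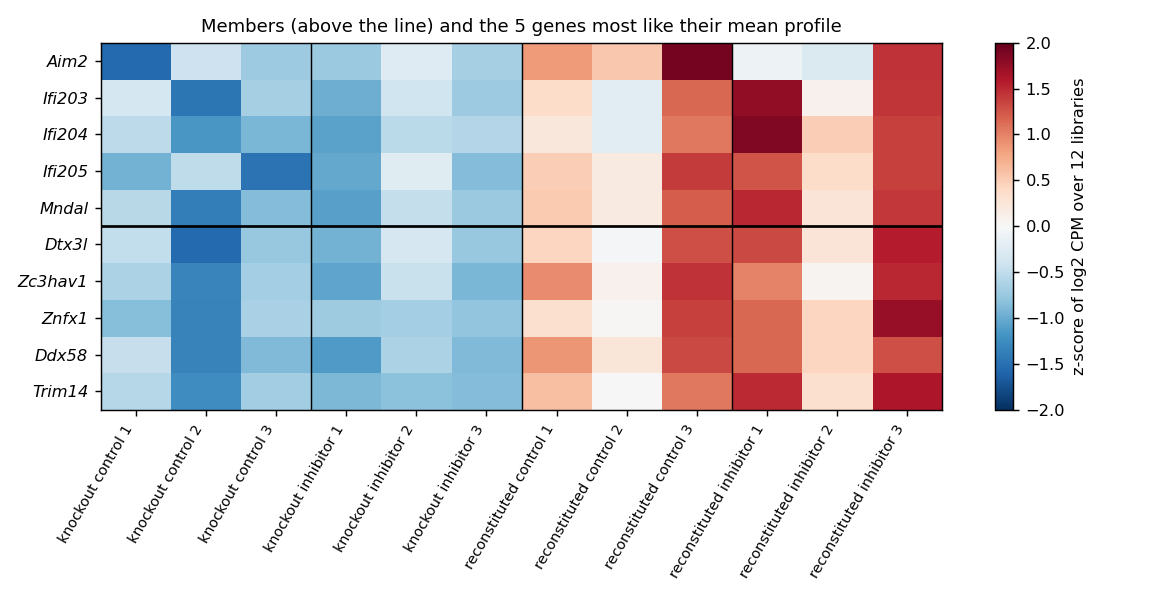
Z-scores of log2 CPM over the 12 libraries for the 5 members (above the thick line) and the 5 genes most like their mean; thin lines separate the groups. All 6 knockout libraries are below 0 in each row, at most -0.24, and Aim2 is near 0 in reconstituted inhibitor 1 (-0.10), where Ifi203 reaches 1.77.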

How the data were processed

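RNA from tumours was sequenced in 12 stranded polyadenylated libraries, per the labels' protocols. The authors deposited raw counts, whole numbers for each gene and library. The submitters' processing notes name Trimmomatic, HISAT2 and StringTie and GRCm38 (mm10), without versions. The sources used here do not say how strand and reads shared between genes were handled. Groups came from the labels. The members and gene lists were chosen with earlier results of these data known. Named genes were the members, the other cluster genes, 8 pathway genes and any other called gene of 2 pathway lists, Mavs, and the genes most like the members; further genes were named after their values were seen. Counts were filtered with filterByExpr, scaled by TMM and fitted with edgeR 4.0.16 in R 4.3.3 (all libraries, 1 mean per group, 7 comparisons). Benjamini-Hochberg adjustment ran over 17885 genes at a threshold of 0.05. Alternatives used RLE factors, DESeq2 1.42.0, limma-voom (limma 3.58.1), other filters (none, or 1 CPM in 6 libraries), a replicate block, only the libraries compared, and each library left out. The fitting script was tested on simulated data. Counting error is small for the members at these depths, and 3 counts equalled 0.0422 to 0.0593 CPM. It is larger for genes with few counts, such as Ifi206, Ifi208, Ifi213, Ifi214 and Fcrl6. Protein sequences were not used here.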

Additional observations from a re-analysis of the deposited data

How the results depend on the processing

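No direction of a member's MAVS effect changed in any alternative. Without the inhibitor, the count of members past the threshold was 0 in all alternatives except DESeq2, with 4. Under the inhibitor it was 2, and it became 4 with DESeq2, 0 with only the libraries compared, 0 with the replicate block and 0 to 4 with 1 library left out. With the block Ifi204 was 1.10 (edgeR adjusted p = 0.0632) and Mndal 1.31 (adjusted p = 0.0657). The labels do not say that a number marks a shared animal or day, and the numbers were not treated as pairs, since not every same-number pair had deviations correlated over 0.1. That held for 9 of 18 same-number pairs against 7 of 36 others, and 6 of 12 libraries were most like their own number, so some shared variation by number remains possible. Averaged over treatments the count was 3 to 5, against 4. Leaving out 1 library means fewer libraries in the fit; the cause of the changed counts was not tested. The sign of the Ifi205 interaction held in 11 of 18 alternatives. Counts were few for Ifi206, Ifi208 and Ifi213, and the lowest count of a member in a library was 510 (Aim2).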
